A study of Mus musculus with 30 samples.

Results

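Expression of 8 genes of the cholesterol pathway (Hmgcs1, Idi1, Fdft1, Sqle, Lss, Cyp51, Sc5d and Insig1) was measured by bulk RNA sequencing of mammary tumors. They were taken by symbol from a table of 21841 genes, and all 8 were present in the table and passed the filter on low counts. All but Insig1 encode enzymes of cholesterol synthesis, and Insig1 encodes a sterol-dependent regulator of these enzymes. None of the 8 takes up cholesterol, so uptake genes were read from a separate list.

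The 30 libraries came from tumors of mice labeled FVB/N-Tg(MMTV-PyVT)634Mul/J, with WT as their genotype, in 6 groups of 5. The mice carry the polyomavirus middle T antigen under the mouse mammary tumor virus promoter, which drives it mainly in mammary epithelium, and tumors arise spontaneously. The groups received vehicle, 5-fluorouracil (5-FU, 40 mg/kg every 4 days), gemcitabine (64 mg/kg every 7 days), the heme oxygenase-1 inhibitor KCL-HO-1i (25 µmol/kg daily), KCL-HO-1i with 5-FU, or KCL-HO-1i with gemcitabine, all by intraperitoneal injection. Per the labels, tumors were collected after 72 hours. The methods of the study give a shorter time and a lower dose of gemcitabine, and ages are not given in the sources used here. 5-FU blocks thymidylate synthesis, and gemcitabine is a deoxycytidine analog that stops DNA synthesis. Heme oxygenase-1 degrades heme.

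The cholesterol pathway leads from acetyl-CoA through mevalonate, isoprenoids and squalene to the sterols. The transcription factor SREBP2 (gene Srebf2) switches on most of its enzymes when sterol in the endoplasmic reticulum is low. When sterol is plentiful, INSIG proteins hold SREBP2 and its escort SCAP in the endoplasmic reticulum. Dividing cells use cholesterol to build new membrane.

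SREBP2 acts with the factors NF-Y and Sp1 at promoters, so the stretch before the start of each gene was searched for their letters. RefSeq (GRCm38.p6) gave a promoter for 6 of the 8 genes, not for Fdft1 or Sqle. The 250 bases before the start of Hmgcs1, chr13:119690101-119690350 (+), are shown because they were the only ones of the 6 to hold the sterol regulatory element letters TCACNCCAC (either strand), at -137 from the start. Capitals mark those letters and the NF-Y box, CCAAT or its reverse complement ATTGG.
Hmgcs1: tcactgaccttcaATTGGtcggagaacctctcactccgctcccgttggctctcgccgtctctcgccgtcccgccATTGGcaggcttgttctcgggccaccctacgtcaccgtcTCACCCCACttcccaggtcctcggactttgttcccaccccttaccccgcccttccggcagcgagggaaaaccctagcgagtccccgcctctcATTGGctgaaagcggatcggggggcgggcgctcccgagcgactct
The NF-Y box was present in 6 of 6 of these promoters, and in 33.8% of all 32851 promoters of the table over the same length. The sterol regulatory letters were present in 1 of 6, and in 1.05% of all promoters. The Sp1 letters GGGCGG (either strand) were present in 6 of 6 and in 32.7% of all promoters, and the E-box CACGTG in 2 of 6 (Insig1 and Sc5d) and in 6.02%. The box nearest to the start of each gene is printed with its flanks, 5′ to 3′ on the strand of the gene, with the box in capitals, to show that both orientations occur. These lie, in the order printed, at -45, -14, -62, -29, -24 and -216 from the start, at chr13:119690296-119690320 (+), chr13:8885582-8885605 (+), chr10:76531533-76531557 (+), chr5:4104712-4104736 (-), chr9:42264310-42264334 (-) and chr5:28071186-28071210 (+).
Hmgcs1 box: cccgcctctcATTGGctgaaagcgg
Idi1 box: ccaaggtgccATTGGctggcgacc
Lss box: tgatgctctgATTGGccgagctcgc
Cyp51 box: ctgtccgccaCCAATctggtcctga
Sc5d box: ccggctgctgATTGGccggctgcct
Insig1 box: ccctcctcccATTGGctccggcggc
Distances are from the RefSeq start. The GENCODE M21 genes given below begin upstream of it for Idi1, Cyp51, Lss and Insig1. Of these, the printed boxes of Idi1 and Cyp51 lie inside the gene bounds. A match of letters is a description of the sequence and no evidence of binding in these tumors.

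Libraries held between 10067698 and 13622395 counts (median 12096816), and the lowest count of any of the 8 genes in a library was 149. Levels are given as CPM, the counts of a gene relative to the scaled total of its library, and differences as log2 fold changes from edgeR's quasi-likelihood test with Benjamini-Hochberg adjustment over the 13663 genes tested. All 8 luminal epithelial markers, Krt8 and Epcam among them, were detected in 30 of 30 libraries, with a summed level between 2381 and 5713 CPM. KCL-HO-1i replicate 4 and KCL-HO-1i/gemcitabine replicate 2 stood apart in markers of other cells. Their 11 adipocyte markers summed to 9273 and 13902 CPM, against 19.4 to 2544 CPM in the other libraries, and they were also the 2 highest in skeletal muscle markers (4212 and 12780 CPM). The tumor descriptions carry 13 codes, such as PY70, whose meaning is not stated. They are called mouse codes here only as a name, and may mark a litter, cage or mouse. Code PY76 alone covers 5-FU replicates 1 to 3 and gemcitabine replicates 1 to 4. Some codes occur in several groups, and none was shared between vehicle and the 5-FU, gemcitabine, KCL-HO-1i or KCL-HO-1i/5-FU groups, so code and treatment cannot be told apart in those comparisons. The same holds for KCL-HO-1i/gemcitabine against gemcitabine, which share no code.

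In all, most of the genes had their lowest mean in tumors given KCL-HO-1i with 5-FU. For 6 of the 8 genes this group had the lowest mean of the 6 groups. Sqle was lowest with KCL-HO-1i/gemcitabine and Sc5d with 5-FU. All 8 genes overlapped between this combination and 5-FU alone, and Hmgcs1 and Cyp51 differed there by -0.06 each in log2. With KCL-HO-1i/5-FU the largest difference from vehicle was in Idi1, at 51.6 CPM against 127 CPM. No member passed the adjusted threshold in edgeR, in this or any of the other 11 comparisons, so single differences are given below with adjusted p-values, and counts at an unadjusted p under 0.05 with the share of all genes that reached the same limit. In RNA of whole tumors, fewer cells of a type and less RNA per cell cannot be told apart.

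**Figure D1:**
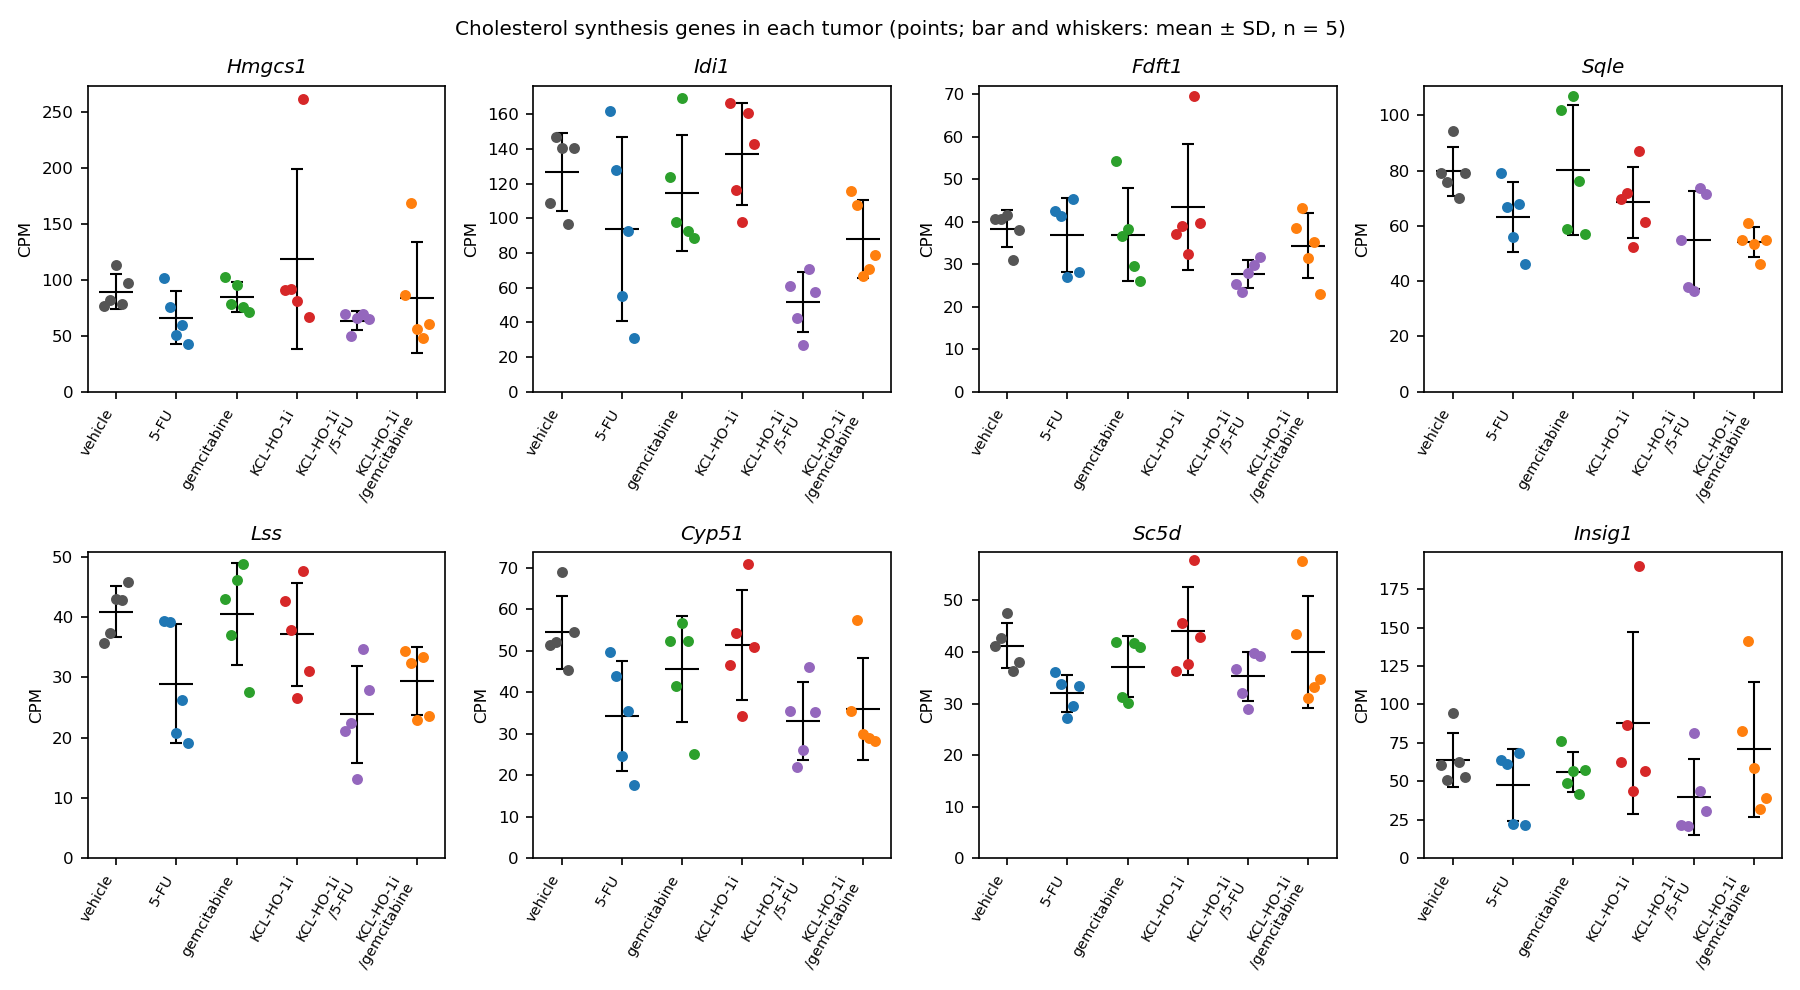
Level of each of the 8 genes (vertical axis, CPM, from 0) in each tumor (points), by treatment group (horizontal axis), with the group mean and SD over 5 tumors. Idi1 in the 5 KCL-HO-1i/5-FU tumors lies between 26.8 and 70.5 CPM, below every vehicle tumor (96.7 CPM or more), and 1 KCL-HO-1i tumor lies far above the rest for Hmgcs1 (262 CPM) and Insig1 (190.0 CPM).

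Per kilobase of exon, Idi1 was the most abundant of the 8 in vehicle tumors. In GENCODE M21 exon unions its level there was 36.1 ± 6.38 CPM per kb (SD, n = 5). Insig1 followed with 20.7 ± 5.68 and Hmgcs1 with 19.4 ± 3.39 CPM per kb, and these 2 lay within each other's spread. Sqle had 14.4 ± 1.61 and Cyp51 12.3 ± 1.99 CPM per kb, with overlapping ranges of 1 SD. Fdft1 (9.08 ± 1.03) and Sc5d (8.47 ± 0.901 CPM per kb) overlapped in the same way, and Lss was lowest at 3.80 ± 0.393 CPM per kb. The exon union of Lss, 10787 bases, was the longest of the 8, so its low level per kilobase depends on the annotation, whose release in the authors' processing is not given in the sources used here.

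The upper part of the pathway was represented by Hmgcs1 and Idi1. HMGCS1 joins acetyl-CoA and acetoacetyl-CoA at an early step; its gene lies at chr13:119690379-119708260 (+, mm10). Vehicle tumors had 76.29, 81.5, 113, 77.9 and 97.2 CPM of Hmgcs1. KCL-HO-1i/5-FU tumors had 69.1965, 49.4, 65.44, 69.0 and 64.7 CPM, all below the vehicle tumors. The difference in log2 was -0.49 (SE 0.32, adjusted p = 0.442), and Hmgcs1 varied widely in the other groups. KCL-HO-1i tumors had 91.0, 92.0, 81.2, 262 and 67.1 CPM and KCL-HO-1i/gemcitabine tumors 86.24, 168, 56.1, 48.2 and 60.8 CPM. The highest value in each of these groups came from the library with the most adipocyte and muscle RNA of that group, and the part of those cells in it was not tested. With 5-FU alone the 5 tumors ran from 42.4 to 102 CPM and with gemcitabine from 71.0 to 102 CPM, both overlapping vehicle.

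IDI1 converts isopentenyl to dimethylallyl diphosphate, the building blocks of all isoprenoids, and its gene lies at chr13:8885501-8892451 (+). Idi1 was 109, 147, 140.4, 96.7 and 140.4 CPM in vehicle tumors. In KCL-HO-1i/5-FU tumors it was 61.1, 42.3, 26.8, 70.5 and 57.5 CPM. The groups did not overlap, and the log2 fold change was -1.29 (SE 0.31, 95% interval -1.94 to -0.64, adjusted p = 0.114). KCL-HO-1i alone gave 167, 116, 97.8, 161 and 143 CPM, which also lay wholly above the combination (log2 fold change -1.41, SE 0.32, adjusted p = 0.102). 5-FU alone gave 162, 128, 55.3, 92.5 and 31.0 CPM. Its tumors spread over nearly the whole range of the series, with replicate 1 among the highest and replicate 5 at the second lowest value of all. Against 5-FU the combination was lower (log2 fold change -0.86, SE 0.31, adjusted p = 0.344). Gemcitabine gave 124, 97.8, 169, 92.7 and 88.5 CPM and KCL-HO-1i/gemcitabine 116, 108, 66.6, 70.5 and 78.8 CPM, and these overlapped vehicle.

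Idi1 in KCL-HO-1i/5-FU tumors was also compared within mouse codes, with KCL-HO-1i in codes PY65 and PY70 and with 5-FU in code PY74. In code PY65 the 2 KCL-HO-1i/5-FU libraries had 61.1 and 57.5 CPM and the KCL-HO-1i library 143 CPM. In code PY70 the KCL-HO-1i/5-FU library had 26.8 CPM and the 2 KCL-HO-1i libraries 116 and 97.8 CPM. In both codes 7 of the 8 genes were lower with the combination. For the other comparison, in code PY74 the 2 KCL-HO-1i/5-FU libraries had 42.3 and 70.5 CPM and the 5-FU library 31.0 CPM. There 1 of the 8 genes (Fdft1) was lower with the combination than with 5-FU. Each code held 1 or 2 libraries of a group, and no share of all genes was taken within codes. The 8 genes varied together, so these counts are not 8 separate observations. With the code as a covariate the Idi1 difference between the combination and 5-FU changed sign, to 0.21.

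The middle of the pathway was represented by Fdft1 and Sqle. FDFT1, squalene synthase, commits the chain to sterols, and its gene lies at chr14:63145150-63179578 (-). Fdft1 was 40.6, 40.7, 41.5, 31.0 and 38.2 CPM in vehicle tumors and 25.4, 23.4, 27.8, 29.9 and 31.6 CPM in KCL-HO-1i/5-FU tumors. These overlapped through vehicle replicate 4 alone, which was below the other 4, and the log2 fold change was -0.47 (SE 0.21, adjusted p = 0.229). KCL-HO-1i alone gave 37.0, 39.1, 32.5, 69.6 and 39.8 CPM, all above the combination (log2 fold change -0.66, SE 0.21, adjusted p = 0.126). With 5-FU alone Fdft1 differed from vehicle by -0.06 (95% interval -0.48 to 0.36), and with gemcitabine its values ran from 26.0 to 54.3 CPM.

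SQLE, squalene epoxidase, catalyzes the first step that needs oxygen and is a known control point of the pathway; its gene lies at chr15:59315077-59331192 (+). Sqle was 79.3, 75.9, 94.2, 70.0 and 79.3 CPM in vehicle tumors and 54.9, 61.2, 53.3, 46.3 and 54.9 CPM in KCL-HO-1i/gemcitabine tumors. The latter formed the tightest group, all below vehicle, and lower on average (log2 fold change -0.56, SE 0.20, adjusted p = 0.119). Gemcitabine alone gave 102, 58.8, 107, 76.29 and 56.9 CPM, 2 tumors above all vehicle tumors and 2 below, and the combination was lower than gemcitabine (log2 fold change -0.57, SE 0.20, adjusted p = 0.288). KCL-HO-1i/5-FU tumors had 55.0, 37.7, 36.5, 73.6 and 71.6 CPM, 2 within the vehicle range and 3 below it (log2 fold change -0.54, SE 0.20, adjusted p = 0.172). On the average of the KCL-HO-1i effect without chemotherapy and with either drug, Sqle was lower (log2 fold change -0.33, SE 0.11, adjusted p = 0.0938). Sqle was the only one of the 8 genes not lower at an unadjusted p under 0.05 in the 5-FU combination compared with KCL-HO-1i alone, where its difference was -0.32 (95% interval -0.73 to 0.09).

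The sterol steps were represented by Lss, Cyp51 and Sc5d. LSS, lanosterol synthase, closes the rings, and its gene lies at chr10:76531588-76557138 (+). Lss was 35.7, 37.4, 43.0, 42.8 and 45.8 CPM in vehicle tumors and 21.1, 22.4, 13.1, 34.8 and 27.95 CPM in KCL-HO-1i/5-FU tumors, with no overlap (log2 fold change -0.78, SE 0.23, adjusted p = 0.119). KCL-HO-1i/gemcitabine tumors had 34.4, 32.5, 23.0, 33.5 and 23.5 CPM, again all below vehicle (log2 fold change -0.48, SE 0.23, adjusted p = 0.239). With 5-FU alone the values were 39.4, 39.3, 20.7, 26.3 and 19.0 CPM, 2 within the vehicle range and 3 below it (log2 fold change -0.50, SE 0.23, adjusted p = 0.999).

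CYP51, the lanosterol demethylase and itself a heme protein, removes a methyl group from the ring system, and its gene lies at chr5:4081145-4104746 (-). Cyp51 was 51.5, 52.0, 69.0, 45.4 and 54.5 CPM in vehicle tumors, 49.8, 43.8, 24.7, 35.5 and 17.6 CPM with 5-FU and 35.6, 21.9, 26.2, 46.2 and 35.2 CPM with KCL-HO-1i/5-FU. Both treated groups were lower, with log2 fold changes against vehicle of -0.67 (SE 0.26, adjusted p = 0.999) and -0.72 (SE 0.26, adjusted p = 0.171), and the difference between them was -0.06 (95% interval -0.60 to 0.49). With KCL-HO-1i/gemcitabine Cyp51 was 35.6, 57.3, 29.8, 29.0 and 28.3 CPM, 4 tumors below all vehicle tumors and replicate 2, the one richest in adipocyte markers, within their range (log2 fold change -0.60, SE 0.26, adjusted p = 0.203). KCL-HO-1i alone differed from vehicle by -0.08 (95% interval -0.63 to 0.46).

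SC5D, sterol C5-desaturase, acts near the end of the pathway, and its gene lies at chr9:42251595-42264256 (-). Sc5d varied least of the 8 genes, from 27.1 to 57.8 CPM over 30 libraries. It was 41.1, 42.8, 47.7, 36.4 and 38.2 CPM with vehicle and 36.1, 33.8, 27.1, 29.5 and 33.4 CPM with 5-FU, which did not overlap (log2 fold change -0.37, SE 0.15, adjusted p = 0.999). KCL-HO-1i/5-FU tumors ran from 28.9 to 39.8 CPM and overlapped vehicle (log2 fold change -0.22, SE 0.15, adjusted p = 0.467). Its 2 highest values, 57.8 and 57.6 CPM, came from KCL-HO-1i replicate 4 and KCL-HO-1i/gemcitabine replicate 2.

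INSIG1 retains SCAP in the endoplasmic reticulum, and its gene, itself a target of SREBP2, lies at chr5:28071363-28078662 (+). Insig1 varied most of the 8, with a highest value 8.93 times the lowest. It was 60.3, 50.7, 94.2, 62.5 and 52.6 CPM with vehicle, 62.3, 86.5, 43.6, 190.0 and 56.4 CPM with KCL-HO-1i and 21.7, 21.3, 81.2, 43.8 and 30.8 CPM with KCL-HO-1i/5-FU. Every group overlapped vehicle, and the log2 fold change of KCL-HO-1i/5-FU against vehicle was -0.69 (SE 0.44, adjusted p = 0.421). The highest values in the series, 190.0 and 141 CPM, were again those of the 2 libraries richest in adipocyte markers.

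**Figure D2:**
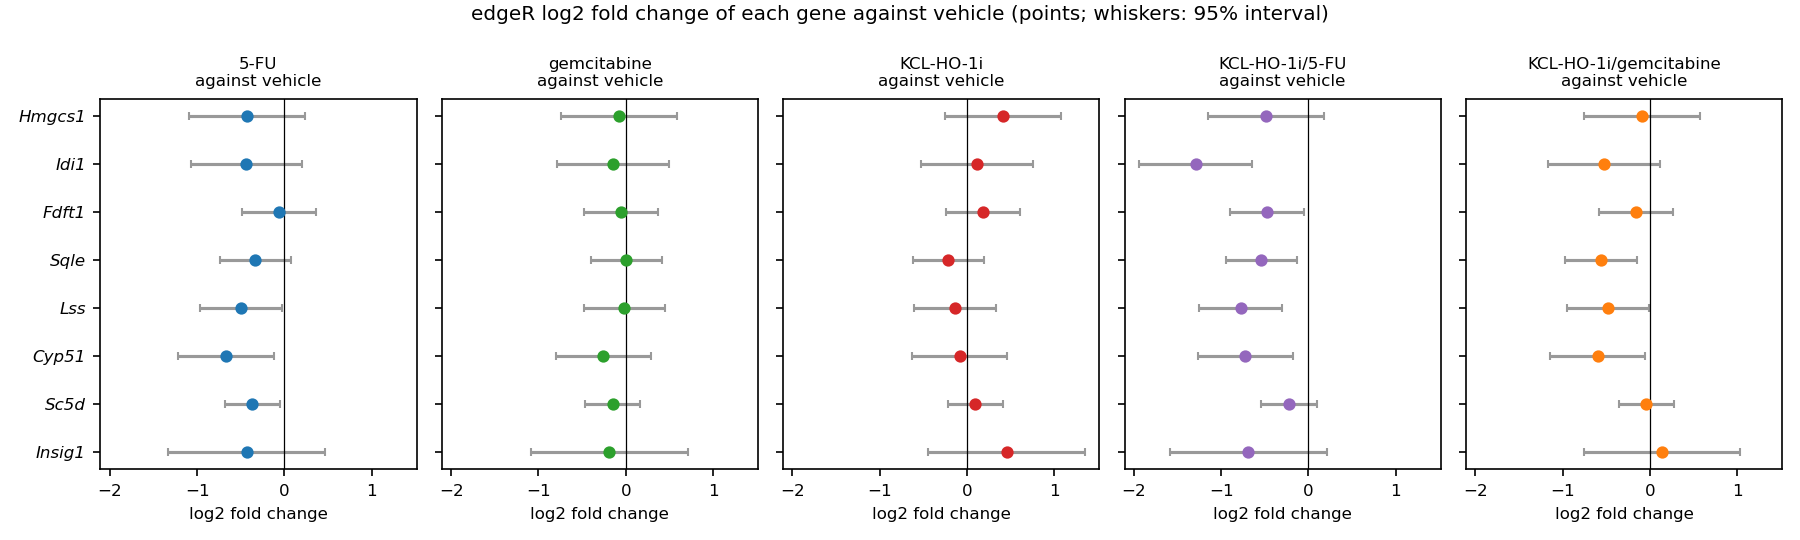
edgeR log2 fold change of each gene against vehicle (horizontal axis) with its 95% interval, 1 panel for each of the 5 treatments. All 8 points lie below 0 for 5-FU and for KCL-HO-1i/5-FU, where Idi1 is farthest at -1.29, while with KCL-HO-1i alone 5 of 8 lie above 0.

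Over the 8 genes together, the comparisons with vehicle differed in how many genes were lower. With KCL-HO-1i/5-FU 5 of 8 (Idi1, Lss, Cyp51, Sqle and Fdft1) were lower at an unadjusted p under 0.05, where 7.84% of all genes tested were lower and 9.79% higher. The median log2 fold change of the 8 was -0.61 and that of all genes tested 0.01. None of the 8 passed the adjusted threshold in edgeR, 2 did in DESeq2 (Idi1 and Lss) and 1 in limma-voom (Idi1). Hmgcs1, Idi1 and Lss lay below vehicle in every tumor, as did 2.07% of all genes. Without the 2 libraries richest in adipocyte and muscle markers, a choice made after the values were seen, 6 of 8 were lower. These 2 libraries belong to neither group compared here, so only the shared filter, scaling and estimate of spread changed.

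With 5-FU alone 3 of 8 (Lss, Cyp51 and Sc5d) were lower at an unadjusted p under 0.05, against 2.24% of all genes, and the median of the 8 was -0.43. Sc5d alone lay below vehicle in every tumor, as did 0.366% of all genes. This count rested on single tumors: it was 0 without 5-FU replicate 3 and 5 without 5-FU replicate 1. With KCL-HO-1i/gemcitabine 3 of 8 (Sqle, Cyp51 and Lss) were lower, where 8.04% of all genes were lower and 11.7% higher, and the median was -0.32. Sqle and Lss did not overlap with vehicle, as was the case for 1.84% of all genes in this direction. limma-voom placed 2 of 8 (Sqle and Cyp51) past the adjusted threshold, and DESeq2 0. The count was 1 without vehicle replicate 3, KCL-HO-1i/gemcitabine replicate 3 or KCL-HO-1i/gemcitabine replicate 5. In code PY84, the only one shared with vehicle, 8 of 8 genes were lower in the single KCL-HO-1i/gemcitabine library than in the single vehicle library. The share of all genes lower in that pair was not taken. The 8 genes varied together, so they are not 8 separate observations. Over all tumors of both groups, 11 of 11 adipocyte (median log2 fold change 4.73) and 8 of 8 skeletal muscle markers (8.31) were higher. So were 7 of 8 fibroblast, 7 of 9 macrophage and 4 of 6 endothelial markers, and 1 of 8 luminal markers was lower. Their part in the result was not tested, and without the 2 libraries richest in adipocyte and muscle markers 4 of 8 cholesterol genes were lower.

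Gemcitabine alone and KCL-HO-1i alone had 0 of 8 genes at an unadjusted p under 0.05 in either direction, and 0 past the adjusted threshold by edgeR, DESeq2 or limma-voom, where 1.78% and 2.08% of all genes were lower, and with KCL-HO-1i 7.36% higher. Their medians were -0.11 and 0.10. The intervals remained wide, for Idi1 from -0.52 to 0.75 with KCL-HO-1i alone, so moderate differences in either direction were not detectable with 5 tumors a group.

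The effect of KCL-HO-1i was also averaged over tumors without chemotherapy, with 5-FU and with gemcitabine. There 8 genes of all 13663 tested, 0.0586%, passed the adjusted threshold in edgeR, and none of the 8 cholesterol genes did by edgeR, DESeq2 or limma-voom. At an unadjusted p under 0.05, 3 of 8 (Sqle, Lss and Idi1) were lower, where 9.22% of all genes were lower and 13.7% higher, and the median was -0.14. The count fell to 1 without 5-FU replicates 1 or 2, gemcitabine replicate 3, KCL-HO-1i replicate 3, KCL-HO-1i/5-FU replicate 3 or KCL-HO-1i/gemcitabine replicate 5, each left out singly. When mouse codes were fitted as a covariate, the average turned to 0.43 for Idi1 and 0.17 for Lss. On the same average 5 of 10 proliferation genes were lower (median -0.44), and 11 of 11 adipocyte, 8 of 8 skeletal muscle, 8 of 8 fibroblast and 7 of 9 macrophage markers were higher, and their part in the result was not tested.

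Each combination was then compared with its single agents, which share tumors with the comparisons above. Against KCL-HO-1i, the 5-FU combination had 7 of 8 genes lower at an unadjusted p under 0.05 (9.43% of all genes) with a median of -0.65, and Idi1 and Fdft1 did not overlap (2.55% of all genes). DESeq2 placed Idi1 past the adjusted threshold. The count fell to 3 without KCL-HO-1i replicate 4, the library richest in adipocyte markers of that group, and the median to -0.46. In the same comparison 9 of 11 adipocyte and 8 of 8 skeletal muscle markers were lower, and their part in the result was not tested. Against 5-FU, 1 of 8 genes (Idi1) was lower (5.26% of all genes), with a range of 0 (without 5-FU replicate 1) to 2 when single libraries were left out. Against gemcitabine, the gemcitabine combination had 1 lower gene (Sqle; 6.51% of all genes). With the mouse code as a covariate its difference turned to 0.057. These groups share no mouse code, so that value was reached only through the codes of other groups. The count became 4 without the 2 libraries richest in adipocyte markers. Against KCL-HO-1i the gemcitabine combination had 1 lower gene (Idi1, 1.46% of all genes). That count ranged from 0 to 5 with single libraries left out, and was 5 without KCL-HO-1i/gemcitabine replicate 2. Within code PY71 all 8 genes were lower in the KCL-HO-1i/gemcitabine library than in the KCL-HO-1i library, and within code PY70, where the combination library was that replicate 2, 1 of 8 (Sqle) was. No share of all genes was taken within these codes, and the 8 genes are not separate observations.

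The interaction asks whether KCL-HO-1i and a chemotherapy together gave more or less than the sum of their single effects. With 5-FU it was at an unadjusted p under 0.05 for 2 of 8 genes, Idi1 (-0.97, SE 0.44, adjusted p = 0.547) and Fdft1 (-0.60, SE 0.29, adjusted p = 0.582), and 4.51% of all genes were lower by the same limit. Both were lost without any 1 of 8 libraries, namely vehicle replicates 1 or 4, 5-FU replicates 1 or 2, KCL-HO-1i replicates 4 or 5 and KCL-HO-1i/5-FU replicates 2 or 3. With the mouse code as a covariate both turned positive (Idi1 0.29, Fdft1 0.87), and with the replicate number as a block the count was 0. With gemcitabine it was 0 of 8, and 0.695% of all genes were lower. No interaction passed the adjusted threshold by edgeR, DESeq2 or limma-voom.

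The rest of the pathway was read from 13 further synthesis enzymes. With KCL-HO-1i/5-FU 13 of 13 had a negative log2 fold change against vehicle (median -0.51). Of all 13663 genes tested, 6643 were negative (median 0.01). Most of these enzymes vary together with the 8 genes, so they are not 13 separate observations. At an unadjusted p under 0.05, 6 of 13 were lower, as were 7.84% of all genes. The smallest p-values belonged to Pmvk, phosphomevalonate kinase (-0.69, SE 0.20, adjusted p = 0.119), and Fdps, farnesyl diphosphate synthase (-0.84, SE 0.27, adjusted p = 0.133). With KCL-HO-1i/gemcitabine 4 of 13 were lower (median -0.35), as were 8.04% of all genes. Dhcr7, the enzyme of the last step of one branch, was first there (-0.71, SE 0.18, adjusted p = 0.0822). 5-FU alone had 2 of 13 lower (Msmo1, -0.59, and Mvd, -0.60), gemcitabine 1 (Pmvk, -0.42) and KCL-HO-1i none. The shares of all genes lower were 2.24%, 1.78% and 2.08%, in that order. None of the 13 was higher at this limit in any of these comparisons.

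**Figure D3:**
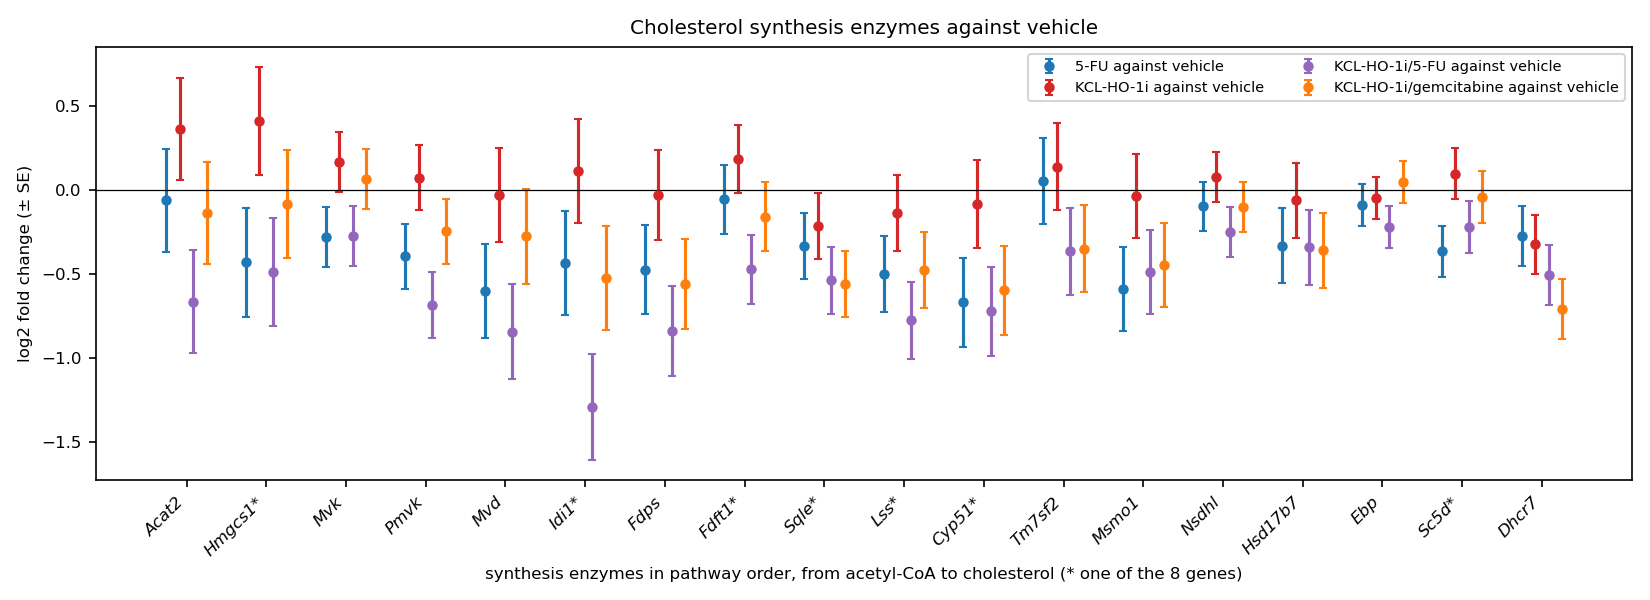
edgeR log2 fold change against vehicle (vertical axis, points with SE) of synthesis enzymes in pathway order (horizontal axis; the 7 enzymes among the 8 genes are starred), for 5-FU, KCL-HO-1i and both combinations. All KCL-HO-1i/5-FU points are negative, and Idi1 is the lowest of them at -1.29.

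Of 10 genes that govern the pathway, 1 was lower at an unadjusted p under 0.05 in each of the comparisons of 5-FU, gemcitabine, KCL-HO-1i and KCL-HO-1i/5-FU with vehicle, 3 with KCL-HO-1i/gemcitabine, and none was higher. The shares of all genes lower were 2.24%, 1.78%, 2.08%, 7.84% and 8.04%, in that order. The 1 of 10 with KCL-HO-1i/5-FU lay near its share. Srebf2 was 144 ± 18.1 CPM with vehicle and 142 ± 28.4 CPM with KCL-HO-1i/5-FU (SD, n = 5), a log2 difference of -0.03 (SE 0.15, adjusted p = 0.946). With KCL-HO-1i/gemcitabine it was 116 ± 14.7 CPM (-0.32, SE 0.15, adjusted p = 0.234). Scap, the escort of SREBP2, was lower in the same group (log2 fold change -0.25, adjusted p = 0.209). Mbtps2, a protease that releases the active factor, had log2 fold changes of -0.26 to -0.33 in 4 of the 5 comparisons with vehicle, all but gemcitabine, where Insig2, the second INSIG, was lower (log2 fold change -0.30, adjusted p = 0.941). Messenger levels of these regulators say nothing of their processing, which was not measured.

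Of 8 listed uptake and transport genes, 7 passed the filter on low counts. Stard4, a sterol carrier of the cytosol, was lower with KCL-HO-1i/5-FU (log2 fold change -0.78, SE 0.26, adjusted p = 0.136). Npc2, which hands cholesterol out of lysosomes, was higher with KCL-HO-1i on average by 0.22 (SE 0.08, adjusted p = 0.0967). Neither passed the adjusted threshold.

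Genes of sterol efflux and of the LXR receptors, which respond to high sterol, leaned the other way. In each combination against vehicle 4 of 9 were higher at an unadjusted p under 0.05 and none lower, where 9.79% (5-FU) and 11.7% (gemcitabine) of all genes were higher, and the medians of the 9 were 0.48 and 0.74. Abca1, the cholesterol exporter, was 75.2 ± 11.7 CPM with vehicle, 135 ± 58.3 CPM with KCL-HO-1i/5-FU (log2 fold change 0.85, SE 0.30, adjusted p = 0.159) and 125 ± 32.7 CPM with KCL-HO-1i/gemcitabine (0.74, SE 0.30, adjusted p = 0.164). Nr1h3, which encodes LXRα, was higher with KCL-HO-1i on average by 0.87 (SE 0.25, adjusted p = 0.0562), as was Ch25h, which makes 25-hydroxycholesterol, by 0.81 (SE 0.28, adjusted p = 0.0935). Macrophages also express Abca1, Abcg1, Nr1h3 and Ch25h. On that average 7 of 9 macrophage markers were higher, as were 13.7% of all genes. Their summed levels were 97.4 to 312 CPM with vehicle, 309 to 795 CPM with KCL-HO-1i/5-FU and 386 to 708 CPM with KCL-HO-1i/gemcitabine. The part of macrophages in the efflux genes was not tested.

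The 8 genes varied together from tumor to tumor. Across 30 libraries 28 of 28 pairs were positively correlated in log2 CPM (Pearson r 0.42 to 0.85, median 0.67; Spearman rho 0.41 to 0.85). The largest adjusted p over the 28 pairs was 0.0211 (permutation test, two-sided), and the smallest p, 1e-05, was the smallest the draws can give. After subtraction of group means, r ran from 0.30 to 0.83 and 27 of 28 pairs passed. Without the 2 libraries farthest from the median, r ran from 0.31 to 0.84. The pair with the highest r was Idi1 and Lss.

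**Figure D4:**
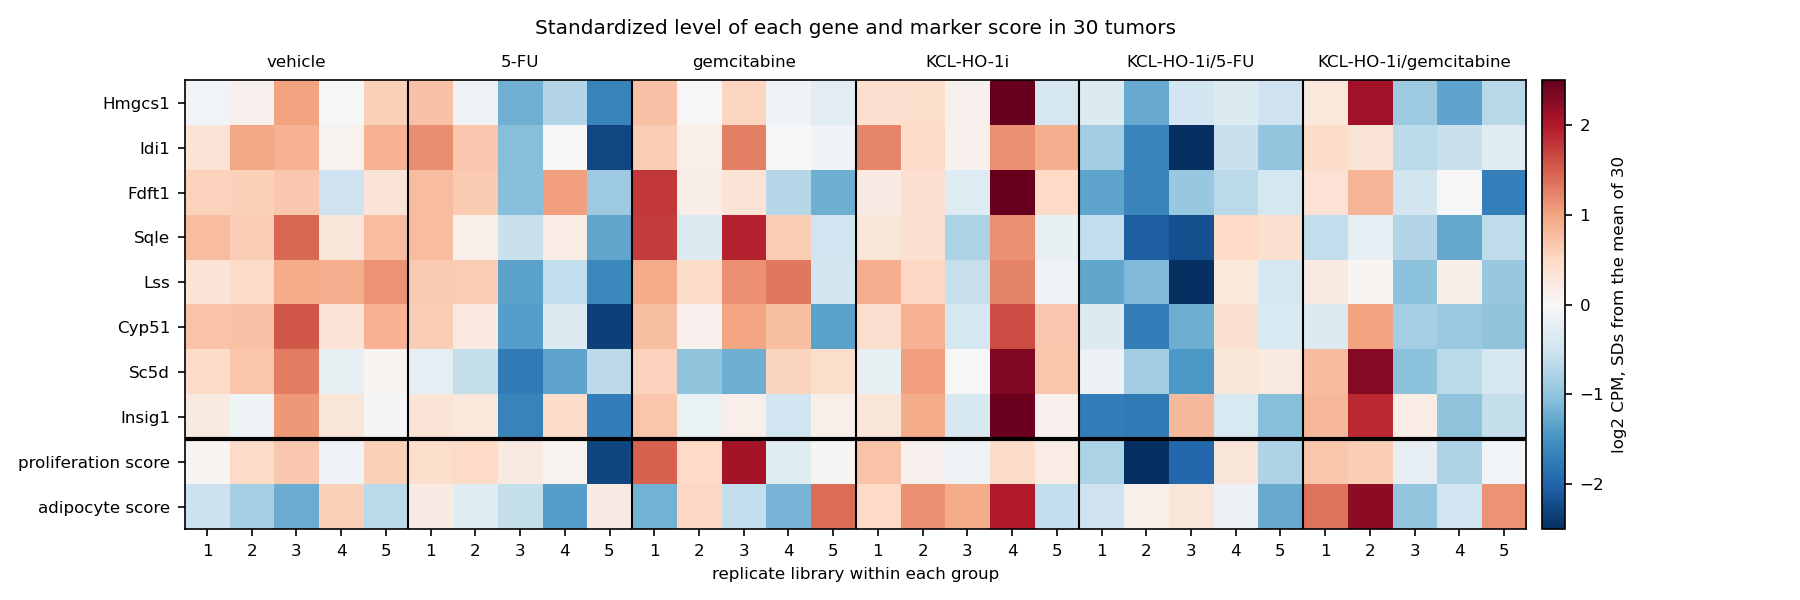
Level of the 8 genes and of 2 marker scores (rows) in each of 30 libraries (columns, replicates 1 to 5 of each group), as SDs of log2 CPM from the mean over all libraries (color). KCL-HO-1i/5-FU replicates 2 and 3 and 5-FU replicate 5 are low in most of the genes and lowest in the proliferation score, and KCL-HO-1i replicate 4 and KCL-HO-1i/gemcitabine replicate 2 are high in Hmgcs1, Sc5d, Insig1 and the adipocyte score.

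Genes of cell division varied with them. A proliferation score, the mean log2 CPM of 10 genes such as Mki67 and Cdk1, was correlated with 7 of 8 genes at an adjusted p under 0.05 over 32 relations with 4 marker scores. Pearson r was 0.85 for Idi1 (rho 0.80, permutation p = 1e-05 for both, adjusted p = 0.000107), 0.80 for Sqle, 0.72 for Cyp51 and 0.71 for Lss. It was 0.30 for Sc5d, the exception (rho 0.33, permutation p = 0.106, adjusted p = 0.226). Centered by group r for Idi1 was 0.81, and without the 2 libraries farthest from the median score 0.80, and 6 of 8 genes passed after centering. The 3 libraries with the lowest score, KCL-HO-1i/5-FU replicates 2 and 3 and 5-FU replicate 5, were also the 3 lowest in Idi1.

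The 10 proliferation genes were also counted in each comparison. With KCL-HO-1i/5-FU 8 of 10 were lower than with vehicle at an unadjusted p under 0.05 (median log2 fold change -1.03; Mki67 -1.17, adjusted p = 0.158), with summed levels of 160 to 778 CPM against 633 to 940.5 CPM. Against KCL-HO-1i 8 of 10 were lower too (median -1.003), and none was at 0 in any library. The shares of all genes lower were 7.84% against vehicle and 9.43% against KCL-HO-1i. With 5-FU alone 0 of 10 were lower (median -0.27) and with KCL-HO-1i/gemcitabine 0 of 10 (median -0.11). The 8 cholesterol genes had 3 lower in each (medians -0.43 and -0.32), where 2.24% and 8.04% of all genes were lower. Their 5-FU count became 0 without 5-FU replicate 3, and their KCL-HO-1i/gemcitabine count fell to 1 when certain single libraries were left out. Luminal markers were lower in 0 of 8 with KCL-HO-1i/5-FU (median -0.14). Other cell markers in the same comparison were 5 of 8 fibroblast, 6 of 9 macrophage and 1 of 6 endothelial genes higher, and 2 of 5 epidermal, 1 of 3 sebaceous and 1 of 8 milk protein genes lower. Of all genes, 9.79% were higher in that comparison. All 8 milk protein genes had negative log2 fold changes with KCL-HO-1i/5-FU, with a median of -2.32, as had 6643 of all 13663 genes tested. The part of proliferation and of these cells in the level of the cholesterol genes was not tested.

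The adipocyte score was correlated with none of the 8 at an adjusted p under 0.05. The highest r was 0.43 for Hmgcs1 (rho 0.21, permutation p = 0.0172, adjusted p = 0.0549), which became 0.02 without the 2 libraries farthest from the median, so the relation rested on them. The luminal score was correlated with Insig1 alone, negatively (r -0.54, rho -0.50, permutation p = 0.00201, adjusted p = 0.00919; centered r -0.65; r -0.48 without 2 libraries). The milk protein score was correlated with Sc5d alone (r 0.46, rho 0.43, permutation p = 0.0107, adjusted p = 0.0381), which did not pass by rho (adjusted p = 0.0662) or after centering.

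**Figure D5:**
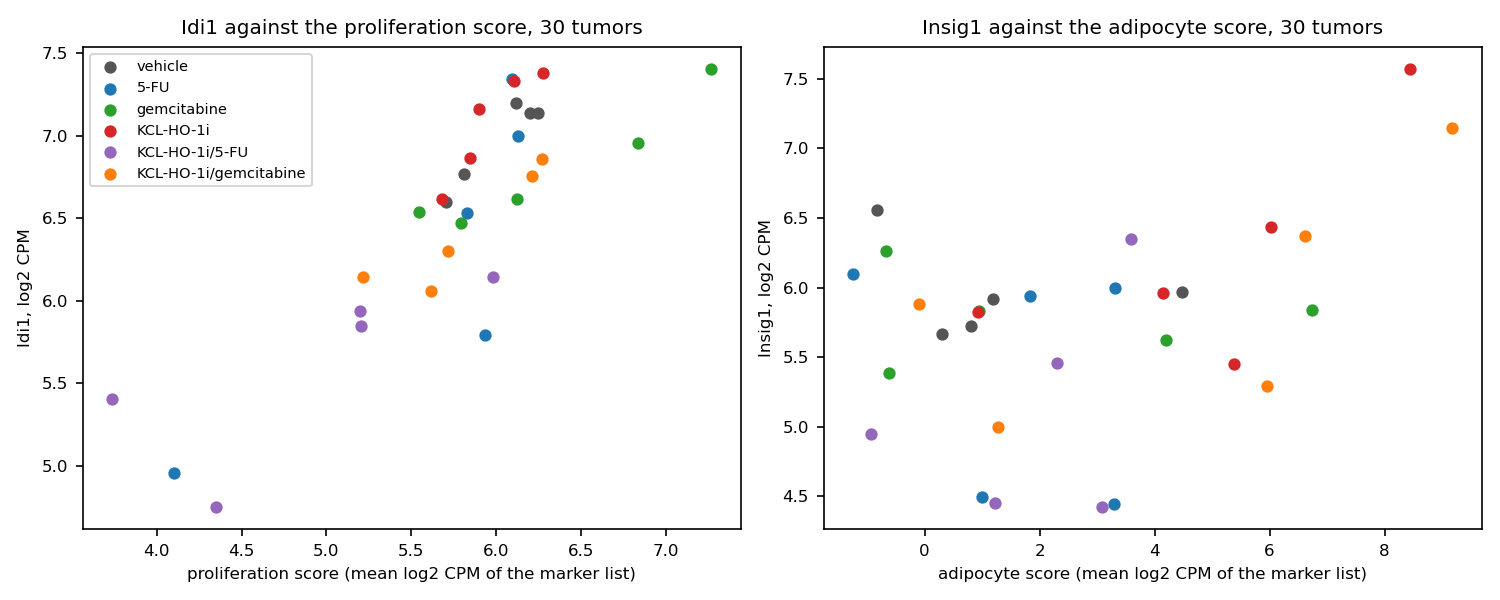
Left, Idi1 (vertical axis, log2 CPM) against the proliferation score (horizontal axis, mean log2 CPM of 10 genes) in 30 tumors colored by group; right, Insig1 against the adipocyte score. Idi1 follows the proliferation score (r = 0.85), while Insig1 shows no such trend apart from the 2 tumors at the far right (r = 0.40 with them and 0.09 without the 2 farthest from the median).

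The genes whose levels most resembled the mean standardized level of the 8 over 30 libraries included enzymes of the same pathway. Others, such as Zgrf1, Gfm2 and Trap1, were not on the pathway lists. Among the 10 nearest of 13655 others were Fdps (r 0.90), Stard4 (0.89), Msmo1 (0.87), Aacs (0.87), Lbr (0.87), Mvd (0.86), Zgrf1 (0.85), Gfm2 (0.85) and Trap1 (0.84). Msmo1 is a later sterol enzyme, Mvd makes isopentenyl diphosphate, Lbr encodes a nuclear envelope protein that also acts on sterols, and Aacs activates acetoacetate for lipid synthesis. Of the 13 other synthesis enzymes, 8 were among the first 100 genes. Ebp, a sterol isomerase, was not (r 0.02). After centering by group, r remained between 0.78 and 0.87 for the 9 of these 10 genes named above.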

How the data were processed

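Bulk RNA sequencing was made from 30 tumors in 6 groups of 5, with a kit that keeps the strand. The submitters' processing notes name FastQC 0.11.9, STAR 2.7.9a, Salmon 1.9.0, DESeq2 and the build mm10. The authors deposited 1 table of expected counts per gene, neither pooled nor scaled by length. The methods speak of TPM, but library totals differ and 38.0% of values are not whole.

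Values were rounded. edgeR 4.0.16 in R 4.3.3 (filterByExpr with a minimum count of 10, TMM, robust quasi-likelihood fit, 6 group means) gave 12 contrasts. CPM used a prior count of 2 for logs, and 3 reads corresponded to 0.215 to 0.302 CPM, which covers counting error only. Alternatives were DESeq2 1.42.0, limma-voom 3.58.1 with sample weights, other filters and scaling, mouse code, replicate block and leaving out each library. Tests were two-sided, correlations used 100000 permutations, and the pipeline was tested on simulated data.

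The lowest chi-square per degree of freedom over 60 library pairs within groups was 19.9, so no library was a repeat of another in its group. Pairs across groups were not examined in this way. The study describes each group as a cohort of mice, but shared mouse codes are not explained, so p-values measure the spread between these samples. The members and lists were chosen with earlier results of these data known. Named pathway genes were a fixed set plus, for each list and comparison, up to 2 in each direction with the smallest unadjusted p. Gene positions are from GENCODE M21 (mm10) and promoters from RefSeq (GRCm38.p6). Some genes of the lists are not reported here.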

Additional observations from a re-analysis of the deposited data

Results flagged for a closer look

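Of 48 sets of 5 tumors (8 genes in 6 groups), 4 had a value whose gap to its nearest neighbor was above Dixon's 95% limit of 0.71 of the range. Gap and range were taken in log2 CPM, and chance flags about 1 in 20 sets. Hmgcs1 was 262 CPM in KCL-HO-1i replicate 4 and 67.1 to 92.0 CPM in the other 4 tumors of that group. Fdft1 was 69.6 CPM in the same tumor and 32.5 to 39.8 CPM in the others. That library had the highest adipocyte sum of its group (9273 CPM), and the part of those cells in both values was not tested. Hmgcs1 was 49.4 CPM in KCL-HO-1i/5-FU replicate 2 and 64.7 to 69.1965 CPM in the others. Fdft1 was 31.0 CPM in vehicle replicate 4 and 38.2 to 41.5 CPM in the others.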

How the results depend on the processing

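The count of the 8 genes past the adjusted threshold was 0 in all 12 comparisons with edgeR. It became 2 with DESeq2 and 1 with limma-voom for KCL-HO-1i/5-FU against vehicle, 1 with DESeq2 for the 5-FU combination compared with KCL-HO-1i alone, and 2 with limma-voom for KCL-HO-1i/gemcitabine against vehicle, and the cause was not tested. With 1 library left out at a time it ran from 0 to 2 for KCL-HO-1i/5-FU against vehicle (2 without KCL-HO-1i/5-FU replicate 4) and from 0 to 1 for the KCL-HO-1i average (1 without gemcitabine replicate 5 or KCL-HO-1i/5-FU replicate 4), and it remained 0 in the other 10. Other filters and scaling gave 0 throughout.

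The mouse code as a covariate turned the sign of 6 differences, none then past the threshold: the KCL-HO-1i average of Idi1 (0.43) and Lss (0.17), Idi1 in KCL-HO-1i/5-FU against 5-FU (0.21), Sqle in KCL-HO-1i/gemcitabine against gemcitabine (0.057), and the 5-FU interaction of Idi1 (0.29) and Fdft1 (0.87). In that fit every comparison with vehicle rested on code PY84, with 1 vehicle tumor. KCL-HO-1i/gemcitabine and gemcitabine share no code, so their Sqle value was reached only through the codes of other groups. Replicate numbers did not pair the tumors (mean residual correlation 0.00284 over 75 same-number pairs), and a replicate block took the genes at an unadjusted p under 0.05 from 2 to 0 in the 5-FU interaction and from 1 to 2 in KCL-HO-1i/gemcitabine against gemcitabine. The 28 pair correlations numbered 27 after centering by group, and the 9 relations with marker scores 7. Each of the 8 genes had at least 149 counts in each library.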

Other observations

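Branches that leave the pathway before squalene were also read. With KCL-HO-1i/5-FU 3 of 5 genes of the non-sterol isoprenoid branch were lower than with vehicle at an unadjusted p under 0.05 and none higher (median log2 fold change -0.37). Of all genes, 7.84% were lower and 9.79% higher at that limit. They were led by Dhdds, which makes dolichol (-0.37, SE 0.09, adjusted p = 0.114), and Pdss2, which makes the tail of coenzyme Q (-0.60, SE 0.18, adjusted p = 0.119). With KCL-HO-1i/gemcitabine 0 of 5 were lower at that limit (edgeR).

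Fatty acid synthesis showed another pattern. With KCL-HO-1i alone 4 of 11 of its genes were higher than with vehicle at an unadjusted p under 0.05, where 7.36% of all genes were higher, and 1 was lower. The higher ones were led by Fasn, fatty acid synthase (2.01, SE 0.74, adjusted p = 0.387), and Acaca, acetyl-CoA carboxylase (1.67, SE 0.65, adjusted p = 0.408). The mean log2 CPM of the 11 genes was 9.79 in KCL-HO-1i replicate 4 alone. It was 7.25 to 7.87 in the other tumors of that group and 7.38 to 8.35 with vehicle. In the same comparison 10 of 11 adipocyte markers were higher, and their part in the fatty acid genes was not tested.

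Among the listed pathway genes, the levels least like the mean of the 8 over 30 libraries were those of Mylip, a ubiquitin ligase (r -0.76), Abcg1 (r -0.71) and Srebf1 (r -0.70), which were picked out after their values were seen. Mylip and Abcg1 are targets of LXR.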
